A study of Homo sapiens with 58 samples.

Results

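The 8 genes described here encode transcription factors that set hepatocyte identity, and their levels were followed across the 58 libraries of an RNA-seq series in HepG2 cells, a line established from a human liver carcinoma. The genes were taken by name from 60675 gene identifiers. They were HNF4A and NR5A2, which encode nuclear receptors, FOXA1, FOXA2 and FOXA3, which encode forkhead factors, CEBPA, which encodes a basic leucine zipper factor, ONECUT1, which encodes a cut homeodomain factor (HNF6), and PROX1, which encodes a prospero homeodomain factor. All 8 were found and had reads in all 58 libraries. A gene entered the tests with at least 1 CPM (counts scaled by library total) in at least 3 libraries, which 13945 genes did. Of the 8 genes, 7 passed. NR5A2 reached 1 CPM in 1 library and was not tested.

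The cells had been treated for 24 h with 1 of 8 herbal extracts in DMSO or with DMSO alone (vehicle), and the labels give no genetic change in any group. Sayeok-tang and Bojungikgi-tang are multi-herb formulas and were given as water extracts. The ethanol extracts were of single herbs, namely Scutellariae Radix, Pinelliae Tuber, dried ginger (Zingiberis Rhizoma), fresh ginger (Zingiberis Rhizoma Recens), Zizyphi Fructus and Coptidis Rhizoma. The doses were 20 (low), 100 (medium) and 500 (high) µg/mL, apart from Coptidis Rhizoma, for which 11.2 (low) and 56 (medium) µg/mL were used here. Of the 24 groups, 15 had 3 libraries, 4 had 2 (the 3 doses of Bojungikgi-tang and high-dose dried ginger) and 5 had 1 (both doses of Coptidis Rhizoma and all 3 of Zizyphi Fructus). The sample labels give the vehicle as 0.1% DMSO, whereas the series text gives 2%. The labels number replicates without saying that they came from separate cultures, so the p-values measure the spread between these libraries, which may be technical.

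In liver, these factors form a network in which most members bind the regulatory regions of one another and of the genes for plasma proteins, lipid transport and bile acid synthesis. FOXA proteins open chromatin in the early liver, HNF4A holds the differentiated state, and CEBPA is tied to metabolic gene expression and to withdrawal from the cell cycle. PROX1 and NR5A2 meet on promoters of bile acid genes, where PROX1 acts as a corepressor.

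Sequence upstream of the start site is shown for FOXA1, CEBPA and ONECUT1, which showed the widest ranges over the extracts, and for HNF4A, the nuclear receptor at the centre of the network. The windows are the 250 bases before the start in RefSeq (GRCh38.p14), read 5′ to 3′ on the gene's strand. This start need not be that of the annotation whose gene bounds are given below. The FOXA1, ONECUT1 and downstream HNF4A windows lie inside those bounds, and the CEBPA window overlaps them in part. Of the 8 genes, 6 had an entry. Capitals mark matches to the motifs searched on both strands.
FOXA1, chr14:37595250-37595499, minus strand: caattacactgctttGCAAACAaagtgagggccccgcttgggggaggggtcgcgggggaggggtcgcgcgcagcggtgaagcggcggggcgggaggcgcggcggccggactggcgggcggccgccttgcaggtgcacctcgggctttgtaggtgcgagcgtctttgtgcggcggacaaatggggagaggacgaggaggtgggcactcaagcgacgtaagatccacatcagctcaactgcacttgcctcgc
CEBPA, chr19:33302535-33302784, minus strand: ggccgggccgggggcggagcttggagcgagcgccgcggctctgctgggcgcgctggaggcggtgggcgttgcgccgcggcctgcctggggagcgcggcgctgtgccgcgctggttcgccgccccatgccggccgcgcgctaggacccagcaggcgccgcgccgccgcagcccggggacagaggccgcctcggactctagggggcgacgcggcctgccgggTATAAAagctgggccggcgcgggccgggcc
ONECUT1, chr15:52790337-52790586, minus strand: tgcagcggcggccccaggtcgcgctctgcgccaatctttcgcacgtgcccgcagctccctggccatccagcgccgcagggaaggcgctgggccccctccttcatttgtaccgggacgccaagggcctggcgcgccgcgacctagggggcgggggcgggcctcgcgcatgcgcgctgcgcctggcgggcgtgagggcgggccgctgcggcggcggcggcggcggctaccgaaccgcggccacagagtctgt
HNF4A, downstream start, chr20:44400989-44401238, plus strand: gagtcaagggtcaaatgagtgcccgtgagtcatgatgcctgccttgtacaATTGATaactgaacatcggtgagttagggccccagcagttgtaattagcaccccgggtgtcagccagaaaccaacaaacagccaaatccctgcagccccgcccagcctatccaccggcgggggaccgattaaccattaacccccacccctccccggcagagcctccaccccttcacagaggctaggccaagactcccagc
The 6 motifs searched, written with N for any base, were looked for in 35116 such windows. The ONECUT motif, ATTGAT, was in 5.58% of them and the FOXA motif, TGTTTNC, in 15.5%. The CEBP motif, TTGCNNAA, was in 9.05%, and the TATA motif, TATAAA, in 10.7%. The HNF4 motif, CAAAGNNCA, was in 4.44%, and the NR5A motif, CAAGGNCA, in 4.51%. The FOXA1 window held a FOXA match that began 235 bases upstream of the start. The CEBPA window held a TATA match that began 30 bases upstream. The downstream HNF4A window held an ONECUT match 200 bases upstream, and its other start site (chr20:44355449-44355698) held an ONECUT match 33 bases upstream. No motif of the 6 was found in the ONECUT1 window. These matches are letters in a window, and binding was not measured.

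In vehicle cells HNF4A (chromosome 20) and CEBPA (chromosome 19) had the highest levels of the 8 per length of exon. This length joins all annotated exons of a gene, so it can exceed that of a single transcript. Per kilobase of exon, CEBPA stood at 52.7 CPM, HNF4A at 50.9, FOXA1 (chromosome 14) at 29.4, FOXA3 (chromosome 19) at 16.4, PROX1 (chromosome 1) at 15.5, FOXA2 (chromosome 20) at 13.7, ONECUT1 (chromosome 15) at 1.79 and NR5A2 (chromosome 1) at 0.102. In the annotation of GRCh38 used for lengths, all 8 are protein-coding genes. HNF4A lies at chr20:44355700-44434596, FOXA1 at chr14:37589984-37596059, FOXA2 at chr20:22581005-22585455, FOXA3 at chr19:45863989-45873797, CEBPA at chr19:33299934-33302564, ONECUT1 at chr15:52756989-52791078, NR5A2 at chr1:200027602-200177424 and PROX1 at chr1:213983181-214041502. As totals not divided by length, the vehicle libraries averaged 139 ± 1.16 CPM for CEBPA, 372 ± 5.79 for HNF4A, 117 ± 1.00 for FOXA1, 35.9 ± 1.66 for FOXA3, 138 ± 4.54 for PROX1, 35.7 ± 1.44 for FOXA2 and 6.87 ± 1.06 for ONECUT1 (SD, n = 3). All values below are CPM of the whole gene. NR5A2 had 8 to 36 counts in a library, which was 0.34 to 1.29 CPM.

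The libraries held 22143845 to 31859981 counts, with the vehicle at 24077535 to 26409029. All 10 hepatocyte markers were measured above 1 CPM in the vehicle, and their summed level ran from 31173 to 45661 CPM over the libraries. Of the markers of other cells, 6 of 7 fibroblast, 3 of 6 leukocyte, 4 of 5 endothelial and 4 of 5 intestinal genes averaged under 1 CPM in the vehicle, and COL1A2, DCN and PTPRC were at 0 in every library. Others were not low, with LYZ at 1149 to 2319 CPM, VIL1 at 212 to 385 CPM, CD68 at 26.9 to 73.9 CPM and PDGFRB at 3.69 to 23.5 CPM over the libraries. Replicate 3 of low-dose Scutellariae Radix and replicate 3 of low-dose dried ginger stood apart from their groups, and results that turn on them are given with and without them. All 58 labels carry the same batch name. The code at the start of a label, whose meaning is not given, differs between the vehicle and every extract. If it marks sets of libraries, the comparisons of an extract with the vehicle also compare 2 sets, and extract and set cannot be told apart. The doses of an extract share this code (label prefix), and so do the pairs of extracts compared below. All comparisons with the vehicle share its 3 libraries.

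FOXA1, CEBPA, ONECUT1, FOXA3, HNF4A and PROX1 fell together at the high dose (500 µg/mL) of Sayeok-tang, fresh ginger and Scutellariae Radix, and 5 of them, all but CEBPA, fell at the high dose of dried ginger. FOXA2 did not pass the test in any of these. The size differed between genes, with CEBPA in Scutellariae Radix at −1.25 on the log2 scale and HNF4A in dried ginger at −0.14. Of the 7 tested genes, edgeR's quasi-likelihood test with Benjamini-Hochberg adjustment over all genes called 0 higher and 6 lower for Sayeok-tang, where 40.2% of all genes were called and 19.9% were called lower. It called 0 higher and 6 lower for fresh ginger (47.9% of all genes called, 23.6% lower), and 0 higher and 5 lower for dried ginger (46.1% called, 22.8% lower). For Scutellariae Radix it called 0 higher and 6 lower, where 56.7% of all genes were called and 28.1% lower. Bojungikgi-tang lowered 2 of the 7, FOXA1 and FOXA3, where 4.55% of all genes were called and 2.31% lower. Pinelliae Tuber lowered 1, FOXA3, where 15.7% were called and 6.57% lower. The median log2 fold change over the 7 genes was −0.36 for Sayeok-tang, 0.01 for Bojungikgi-tang, −0.42 for fresh ginger, −0.23 for dried ginger, 0.00 for Pinelliae Tuber and −0.33 for Scutellariae Radix. Over all genes tested it lay within 0.01 of 0 in each. In bulk RNA, fewer cells of a kind and less RNA per cell cannot be told apart.

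**Figure D1:**
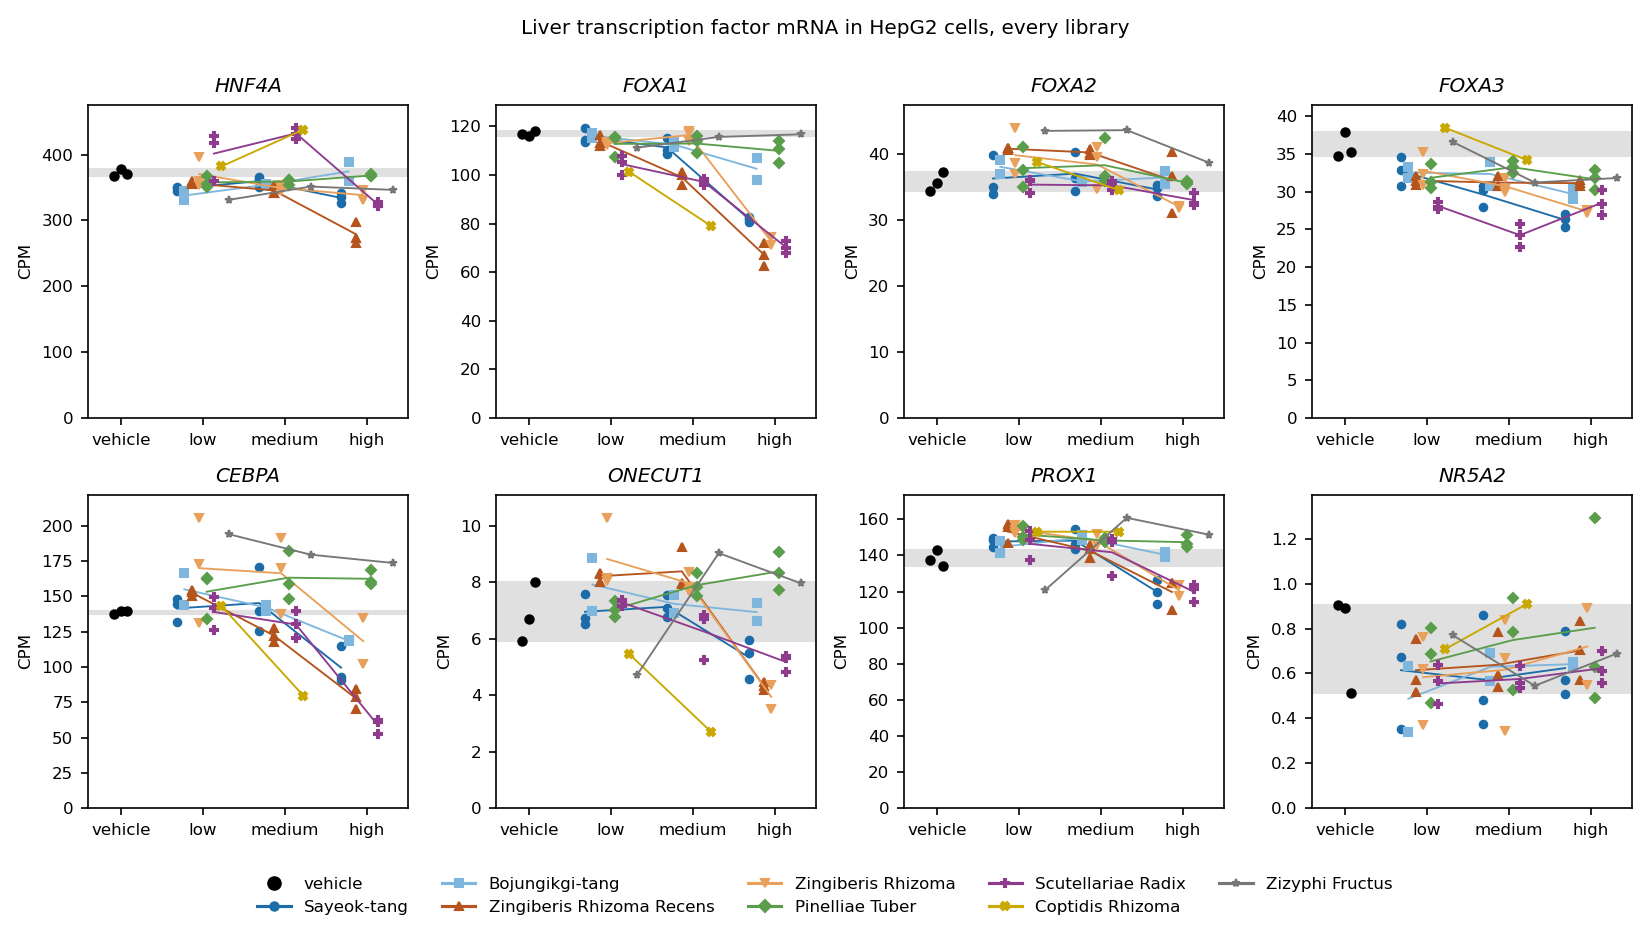
CPM (vertical axis, from 0) of each gene in every library, by dose (horizontal axis), with colours for the 8 extracts, lines through the group means and a grey band for the range of the 3 vehicle libraries. The FOXA1 points of high-dose Sayeok-tang, both gingers and Scutellariae Radix lie between 62.4 and 82.9 CPM, below the vehicle at 116 to 118 CPM, whereas NR5A2 stays near 1 CPM or under in every group.

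FOXA1, a pioneer factor that opens chromatin for other liver regulators, fell in 5 of 6 high-dose comparisons. Fresh ginger at the high dose gave 72.2, 67.1 and 62.4 CPM, against 117, 116 and 118 CPM in vehicle cells. Scutellariae Radix gave 68.0, 72.8 and 69.9 CPM, dried ginger 74.3 and 71.0 CPM, and Sayeok-tang 82.9, 80.7 and 81.7 CPM. Every one of these libraries lay below every vehicle library. Here and below, such gaps describe the values, and the share of all genes that show them is not given. The log2 fold changes were −0.80 ± 0.04 (SE) for fresh ginger (adjusted p = 2.4e-21), −0.74 ± 0.04 for Scutellariae Radix (adjusted p = 2.1e-20), −0.69 ± 0.05 for dried ginger (adjusted p = 5.1e-17) and −0.52 ± 0.04 for Sayeok-tang (adjusted p = 8.8e-15). Bojungikgi-tang gave 98.1 and 107 CPM, a log2 fold change of −0.19 (adjusted p = 0.0058). Without its replicate 2 the call was lost (−0.13, adjusted p = 0.34). Pinelliae Tuber gave 105, 114 and 111 CPM and did not pass (−0.09, 95% interval −0.17 to −0.01, adjusted p = 0.11).

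At lower doses FOXA1 fell in fewer extracts. At the medium dose (100 µg/mL) it had 100.1, 101 and 95.9 CPM in fresh ginger (log2 fold change −0.24, adjusted p = 1.7e-05) and 98.2, 97.6 and 95.7 CPM in Scutellariae Radix (−0.27, adjusted p = 1.2e-06). At the low dose (20 µg/mL) Scutellariae Radix gave 106, 108 and 99.9 CPM (−0.16, adjusted p = 0.0046), and without replicate 3 the call was lost (−0.13, adjusted p = 0.061). FOXA1 means lay below the vehicle mean in all 18 replicated comparisons, 8 of which passed.

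CEBPA, a basic leucine zipper factor of metabolic genes, had the widest range. High-dose Scutellariae Radix gave 52.4, 60.9 and 62.5 CPM, against 137, 139 and 139.5 CPM in vehicle cells. The log2 fold change was −1.25 ± 0.12 (adjusted p = 5.4e-12), the largest of the 7 genes in the 18 tested comparisons with the vehicle. High-dose fresh ginger gave 78.6, 84.5 and 70.3 CPM (−0.83 ± 0.12, adjusted p = 1.2e-07) and high-dose Sayeok-tang 93.3, 90.7 and 115 CPM (−0.48 ± 0.12, adjusted p = 0.00097), all below the vehicle libraries. High-dose dried ginger gave 102 and 135 CPM and did not pass (−0.23, 95% interval −0.50 to 0.04, adjusted p = 0.15). Without its replicate 2, the library at 135 CPM, it was called lower (−0.45, adjusted p = 0.031).

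CEBPA also varied most between replicates among the tested genes. Its coefficient of variation within a group had a median of 9.18% over 19 replicated groups and reached 21.9%, in low-dose dried ginger at 131, 173 and 206 CPM. The medians for HNF4A and FOXA1 were 1.92% and 2.81%. In high-dose Bojungikgi-tang CEBPA had 118 and 119 CPM, below every vehicle library. The difference did not pass (−0.23, adjusted p = 0.39), but was called where only these libraries and the vehicle entered the fit (adjusted p = 0.006) and with no filter on low counts (adjusted p = 0.00052). In high-dose Pinelliae Tuber it had 160.3, 169 and 159 CPM, above every vehicle library (0.23, 95% interval 0.00 to 0.46, adjusted p = 0.18). That difference was called under the same alternatives (adjusted p = 0.00074 and 2.5e-05).

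ONECUT1, a cut homeodomain factor that acts on HNF4A and bile duct genes, was expressed at low level and fell most in dried ginger. High-dose dried ginger gave 3.52 and 4.36 CPM, and high-dose fresh ginger 4.16, 4.48 and 4.31 CPM, against 5.92, 6.69 and 8.01 CPM in vehicle cells. Neither ginger overlapped the vehicle. The log2 fold changes were −0.80 ± 0.14 for dried ginger (adjusted p = 2.8e-06) and −0.67 ± 0.11 for fresh ginger (adjusted p = 3.9e-06). High-dose Scutellariae Radix gave 5.37, 5.32 and 4.82 CPM (−0.41, adjusted p = 0.0016). High-dose Sayeok-tang gave 4.58, 5.48 and 5.93 CPM, which overlapped the vehicle (−0.36, adjusted p = 0.0073). That call was lost without Sayeok-tang replicate 1 (adjusted p = 0.075) and without vehicle replicate 3 (adjusted p = 0.12).

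At the low dose of dried ginger ONECUT1 was higher than in the vehicle, at 8.13, 8.04 and 10.3 CPM (log2 fold change 0.36 ± 0.10, adjusted p = 0.046). This was 1 of 2 rises called among the 7 genes, and it was lost without replicate 3 (0.23, adjusted p = 0.47), without vehicle replicate 1 (adjusted p = 0.27) or vehicle replicate 2 (adjusted p = 0.11), and with DESeq2 (adjusted p = 0.088). High-dose Pinelliae Tuber gave 7.72, 9.08 and 8.33 CPM and did not pass (0.28, adjusted p = 0.054), but was called without vehicle replicate 3 (0.41, adjusted p = 0.015) or its own replicate 1 (adjusted p = 0.045).

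HNF4A, the nuclear receptor at the centre of the network, moved both ways. High-dose fresh ginger gave 298, 267 and 273 CPM, against 368, 379 and 369.9 CPM in vehicle cells, a log2 fold change of −0.42 ± 0.04 (adjusted p = 2.1e-11). High-dose Scutellariae Radix gave 321, 323 and 329 CPM (−0.20, adjusted p = 7.6e-05), high-dose Sayeok-tang 326, 342 and 335 CPM (−0.15, adjusted p = 0.0026) and high-dose dried ginger 346 and 331 CPM (−0.14, adjusted p = 0.015). All of these libraries lay below the vehicle. The dried ginger call was lost without its replicate 2 (adjusted p = 0.18).

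Medium-dose Scutellariae Radix raised HNF4A to 432, 441 and 424 CPM, above every vehicle library (log2 fold change 0.22 ± 0.04, adjusted p = 0.00014). In the low-dose group 2 libraries had 428 and 417 CPM and replicate 3 had 359.5 CPM (0.11, adjusted p = 0.084). Without that replicate the low dose was called higher (0.18, adjusted p = 0.0016). HNF4A-AS1, an antisense transcript at the same locus, averaged 3.00 CPM at the low dose of Scutellariae Radix (log2 fold change 1.27, adjusted p = 3.5e-06) and 2.62 CPM at its medium dose (1.07, adjusted p = 2.4e-05), against 1.24 CPM in vehicle cells. It fell at the high dose of fresh ginger (−0.99, adjusted p = 0.00055). The kit keeps strand, but the strand setting of the counting is not given in the sources used here, so reads of HNF4A and HNF4A-AS1 may not be fully separate.

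FOXA3, a forkhead factor of mature liver that in mice sustains hepatic glucose transport during fasting, was the one gene of the 7 that was called lower at the high dose of all 6 replicated extracts. It had 27.0, 25.3 and 26.4 CPM in high-dose Sayeok-tang, 27.5 and 27.2 CPM in dried ginger, and 30.2, 26.9 and 28.4 CPM in Scutellariae Radix, against 34.7, 37.8 and 35.2 CPM in vehicle cells. Bojungikgi-tang gave 30.3 and 29.0 CPM, fresh ginger 31.5, 31.1 and 30.7 CPM, and Pinelliae Tuber 31.8, 30.3 and 32.8 CPM. No high-dose library reached the vehicle range. The log2 fold changes ran from −0.45 in Sayeok-tang (adjusted p = 1.3e-09) to −0.18 in Pinelliae Tuber (adjusted p = 0.011). The Pinelliae Tuber call was lost without its replicate 2 (adjusted p = 0.078) or without vehicle replicate 2 (adjusted p = 0.086), and the Bojungikgi-tang call (−0.28, adjusted p = 0.0025) without its replicate 3 (adjusted p = 0.063).

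FOXA3 fell already at the lower doses of some extracts. It passed the test at 4 of 6 medium doses and 1 of 6 low doses, and its mean lay below the vehicle mean in all 18 comparisons. The medium-dose calls in fresh ginger (−0.20, adjusted p = 0.0062) and dried ginger (−0.23, adjusted p = 0.012) were lost without vehicle replicate 2 (adjusted p = 0.064 and 0.085), and that in dried ginger also without its own replicate 1 (adjusted p = 0.08) or replicate 3 (adjusted p = 0.061). Medium-dose Scutellariae Radix gave its lowest level, 22.7, 24.3 and 25.7 CPM (log2 fold change −0.57 ± 0.05, adjusted p = 1.9e-11), below the low dose at 27.7, 28.0 and 28.7 CPM (−0.36, adjusted p = 6.3e-06) and the high dose (−0.33, adjusted p = 5.7e-07). The vehicle held the highest mean of the 19 replicated groups for FOXA3, and also for FOXA1. As the 3 vehicle libraries enter all 18 comparisons and carry their own label prefix, the direction over the 18 is not a set of separate observations.

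FOXA2, which shares the pioneer role of FOXA1 in early liver, did not pass in any of the 18 comparisons with the vehicle. It had 33.6, 35.4 and 34.9 CPM in high-dose Sayeok-tang and 40.3, 36.7 and 31.0 CPM in fresh ginger, against 34.4, 35.6 and 37.3 CPM in vehicle cells. Dried ginger gave 31.9 and 32.2 CPM and Scutellariae Radix 32.6, 34.2 and 32.3 CPM, all below the vehicle libraries. The 95% interval of the log2 fold change was −0.19 to 0.10 for Sayeok-tang, −0.13 to 0.15 for fresh ginger, −0.32 to 0.01 for dried ginger and −0.26 to 0.03 for Scutellariae Radix. With only the extract and the vehicle in the fit, FOXA2 was called lower in dried ginger (−0.16, adjusted p = 0.021) and Scutellariae Radix (−0.12, adjusted p = 0.038). The interval of FOXA1 lay wholly below that of FOXA2 in 4 of 6 high-dose comparisons (Sayeok-tang, both gingers and Scutellariae Radix), in 2 of 6 at the medium dose and in 1 of 6 at the low dose.

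LINC00261, a long noncoding RNA encoded beside FOXA2, changed where FOXA2 did not pass. It averaged 42.9 CPM in high-dose dried ginger, 50.7 in Scutellariae Radix, 56.4 in fresh ginger and 57.4 in Sayeok-tang, against 77.6 CPM in vehicle cells. Its log2 fold changes were −0.85 for dried ginger (adjusted p = 4.6e-21), −0.61 for Scutellariae Radix, −0.46 for fresh ginger and −0.44 for Sayeok-tang (adjusted p = 1.8e-13). Low-dose fresh ginger raised it (0.17, adjusted p = 0.011). CEBPA-DT, transcribed divergently from the CEBPA start, fell in high-dose fresh ginger (−0.66, adjusted p = 8.5e-07) and Sayeok-tang (−0.32, adjusted p = 0.0083), where CEBPA fell, and in Pinelliae Tuber (−0.28, adjusted p = 0.044), where CEBPA was at 0.23 and did not pass. In Scutellariae Radix, where CEBPA fell most, CEBPA-DT had a log2 fold change of −0.17 (adjusted p = 0.13).

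PROX1, the corepressor, fell by nearly the same amount in 4 extracts. It had 113, 127 and 119.7 CPM in high-dose Sayeok-tang, 109.8, 125 and 125 CPM in fresh ginger, 123 and 118 CPM in dried ginger and 121, 124 and 114 CPM in Scutellariae Radix, against 137, 143 and 134 CPM in vehicle cells. The libraries did not overlap the vehicle in any of these. The log2 fold changes were −0.21, −0.21, −0.20 and −0.21 in that order, with adjusted p from 0.00022 to 0.0021. The dried ginger call was lost without its replicate 2 (adjusted p = 0.055). At the low doses PROX1 means lay above the vehicle mean in 6 of 6 extracts, by 0.07 to 0.16 on the log2 scale, and 0 of these passed with edgeR. At an unadjusted p under 0.05 they numbered 4 of 6, with the share of all genes at that threshold not given. Low-dose dried ginger, the nearest (0.16, adjusted p = 0.053), was called with DESeq2 (adjusted p = 0.045).

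**Figure D2:**
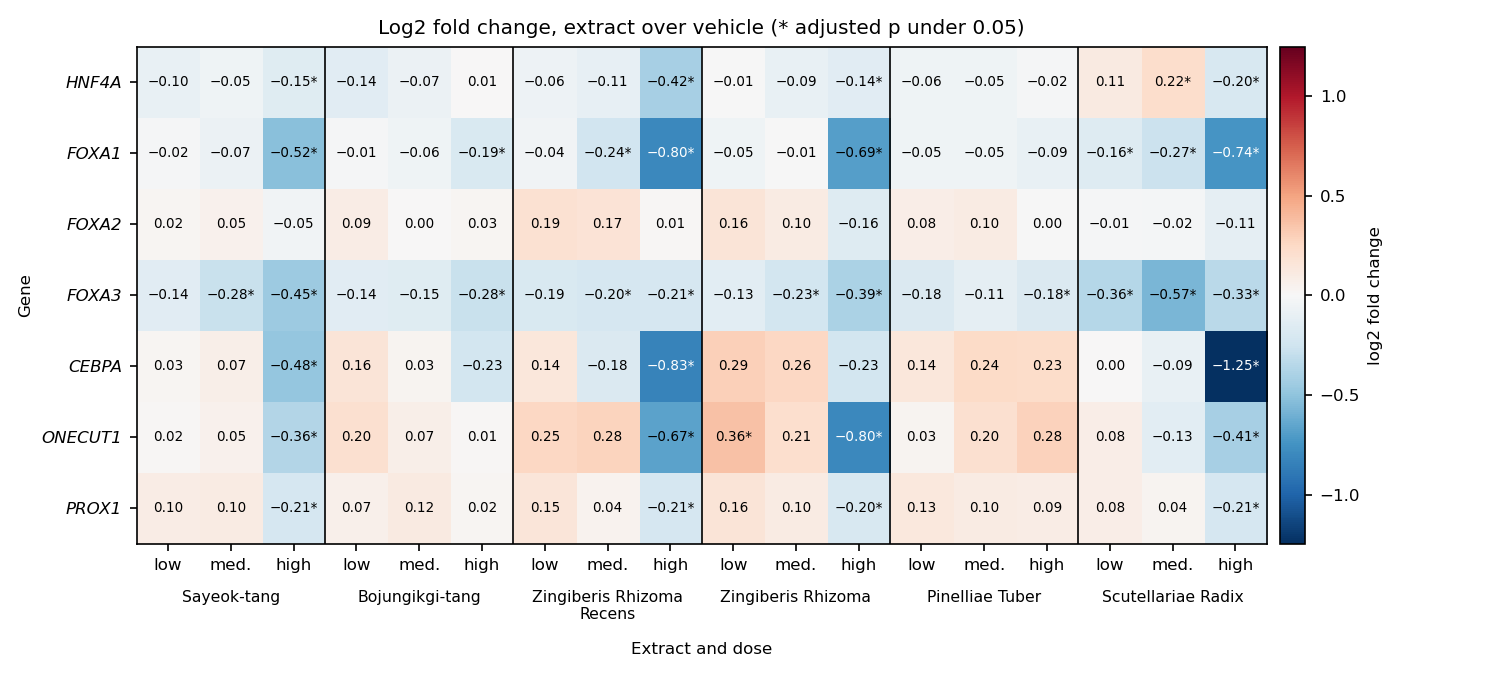
Log2 fold change of the 7 tested genes (rows) for 6 extracts at low, medium and high dose (columns), extract over vehicle, with stars for an adjusted p under 0.05. Blue cells gather in the high-dose columns of Sayeok-tang, both gingers and Scutellariae Radix, with −1.25 for CEBPA in Scutellariae Radix as the darkest, while the FOXA2 row holds no star.

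Below the high dose few of the 7 genes passed. At the medium dose edgeR called 0 higher and 1 lower for Sayeok-tang (4.22% of all genes called), 0 and 2 for fresh ginger (11.3%), 0 and 1 for dried ginger (1.45%) and 1 and 2 for Scutellariae Radix (18.3%). At the low dose it called 1 higher and 0 lower for dried ginger (2.12% of all genes called) and 0 higher and 2 lower for Scutellariae Radix (10.3%). For 6 other comparisons edgeR called 0 of the 7, and DESeq2 called 0 of those to which it gave an adjusted p. Brackets give the share of all genes called, then the count of the 7 at an unadjusted p under 0.05. The share uses the adjusted p, so it cannot be set beside that count. The share of all genes at the unadjusted threshold is not given, so the count shows nothing particular to the 7 genes. At the medium dose the comparisons were Bojungikgi-tang (0.0645%, 2 of 7) and Pinelliae Tuber (0.287%, 3 of 7). At the low dose they were Sayeok-tang (0.0574%, 3 of 7), Bojungikgi-tang (0%, 2 of 7), fresh ginger (0.602%, 4 of 7) and Pinelliae Tuber (0.272%, 2 of 7). DESeq2 gave ONECUT1 no adjusted p in low-dose Sayeok-tang, medium-dose Bojungikgi-tang and the medium and low doses of Pinelliae Tuber.

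Comparing the high dose with the low dose of the same extract leaves out the vehicle. Dried ginger lowered all 7 tested genes at the high dose relative to the low dose, where 47.4% of all genes were called and 24.3% lower. Fresh ginger lowered 6 of 7, all but FOXA3 (47.6% of all genes called, 24.3% lower). Scutellariae Radix lowered 5 of 7 (55.7% called, 28.5% lower) and Sayeok-tang 5 of 7 (37.6% called, 19.3% lower). Bojungikgi-tang lowered FOXA1 alone (1.69% called, 0.875% lower). For Pinelliae Tuber edgeR and DESeq2 called 0 of the 7 (10.1% of all genes called). At an unadjusted p under 0.05, a looser threshold than that of the 10.1%, there was 1.

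ONECUT1 showed its widest contrast between doses in dried ginger, at 3.52 and 4.36 CPM in the high dose and 8.13, 8.04 and 10.3 CPM in the low dose, a log2 fold change of −1.17 ± 0.13 (adjusted p = 2.6e-10). In fresh ginger it had 4.16, 4.48 and 4.31 CPM in the high dose, against 8.29, 8.32 and 8.00 CPM in the low dose (−0.92, adjusted p = 1.9e-09). CEBPA fell by 1.25 on the log2 scale in Scutellariae Radix (adjusted p = 4.7e-12) and by 0.97 in fresh ginger (adjusted p = 3e-09). In dried ginger its libraries overlapped between the doses (−0.53, adjusted p = 0.0009), and the call was lost without high-dose replicate 1 (adjusted p = 0.095). In Sayeok-tang ONECUT1 fell by 0.38 (adjusted p = 0.0055), a call lost without high-dose replicate 1 (adjusted p = 0.06) or low-dose replicate 2 (adjusted p = 0.051). PROX1 fell in 4 of 6 extracts (−0.29 to −0.36).

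FOXA3 did not pass between the high and the low dose in Scutellariae Radix or fresh ginger. Its log2 fold change of high over low dose was 0.02 in Scutellariae Radix (95% interval −0.08 to 0.13) and −0.02 in fresh ginger (−0.12 to 0.09). It fell in Sayeok-tang (−0.32, adjusted p = 4.8e-06) and dried ginger (−0.26, adjusted p = 0.00032). FOXA2 passed here and not against the vehicle. It fell by 0.32 in dried ginger (adjusted p = 0.0011), with 31.9 and 32.2 CPM in the high dose and 36.9, 38.6 and 44.0 CPM in the low dose. In fresh ginger FOXA2 was lower at the high dose by 0.18 (adjusted p = 0.03), averaging 36.0 CPM against 40.8 CPM at the low dose. The high dose lay near the vehicle mean of 35.7 CPM, and the low dose lay above it. The call was lost without high-dose replicate 3 (adjusted p = 0.35), without any 1 of the low-dose replicates (adjusted p = 0.057 to 0.064) and with DESeq2 (adjusted p = 0.052).

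**Figure D3:**
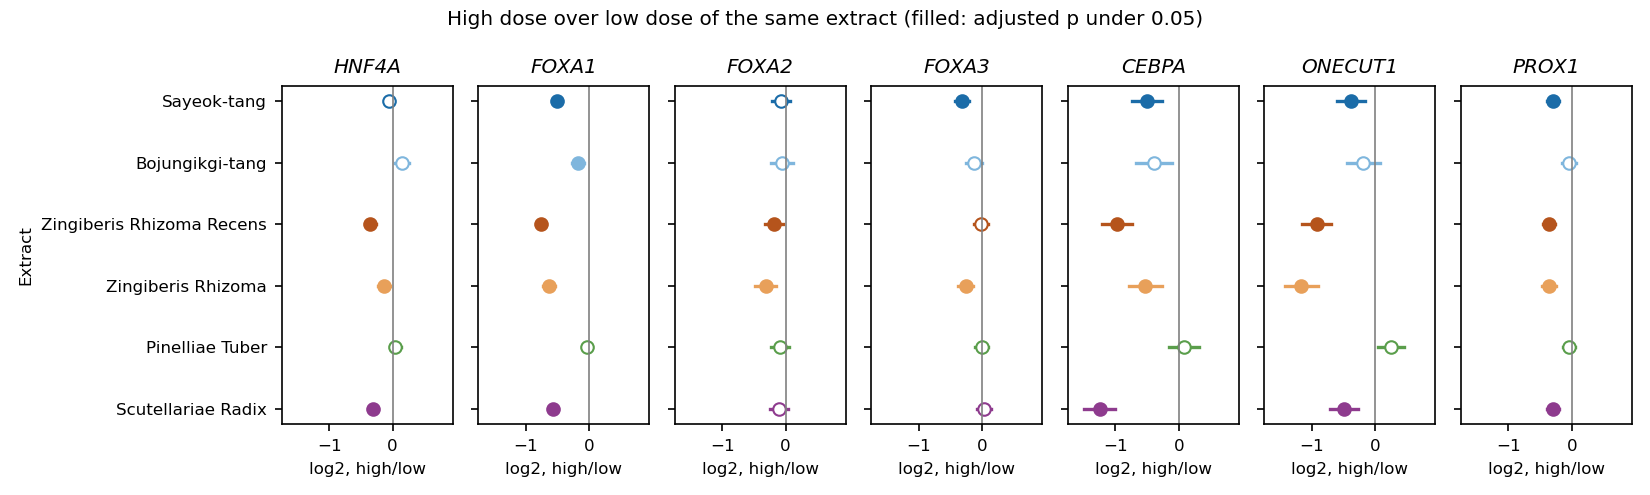
Log2 fold change of high over low dose (horizontal axis) for each extract (rows) and gene (panels), with 95% intervals as bars and filled points for an adjusted p under 0.05. The filled points lie left of 0, the farthest being CEBPA in Scutellariae Radix at −1.25 and ONECUT1 in dried ginger at −1.17, and the Pinelliae Tuber points are all open.

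HNF4A fell between the doses in Scutellariae Radix, at 321, 323 and 329 CPM in the high dose and 428, 417 and 359.5 CPM in the low dose (log2 fold change −0.31 ± 0.04, adjusted p = 2.3e-08). It fell in fresh ginger (−0.35, adjusted p = 1.5e-09). In dried ginger its fall was small (−0.13, adjusted p = 0.02) and was lost without low-dose replicate 3 (−0.08, adjusted p = 0.19) or without high-dose replicate 2 (adjusted p = 0.21). In Sayeok-tang HNF4A did not pass (−0.06, 95% interval −0.14 to 0.03). The FOXA1 call in Bojungikgi-tang (−0.18, adjusted p = 0.038) was lost without high-dose replicate 2 (−0.12, adjusted p = 0.65) and without low-dose replicate 2 (adjusted p = 0.12) or replicate 3 (adjusted p = 0.32).

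Pairs of extracts that share a label prefix were compared at 500 µg/mL. Scutellariae Radix lay below Pinelliae Tuber in 6 of the 7 genes, where 55.9% of all genes were called and 28.7% lower. CEBPA had 52.4, 60.9 and 62.5 CPM in Scutellariae Radix and 160.3, 169 and 159 CPM in Pinelliae Tuber, a log2 fold change of −1.47 ± 0.12 (adjusted p = 2.9e-14). ONECUT1 differed by −0.69 (adjusted p = 3.7e-07) and FOXA1 by −0.65 (adjusted p = 2.3e-18). FOXA2 did not pass (−0.11, 95% interval −0.25 to 0.03). FOXA3 differed least among those called (−0.15, adjusted p = 0.016), and that call was lost without Pinelliae Tuber replicate 3 (adjusted p = 0.088) or Scutellariae Radix replicate 2 (adjusted p = 0.11).

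Bojungikgi-tang lay above Sayeok-tang in 5 of the 7 genes, where 26.2% of all genes were called and 13% higher. FOXA1 had 98.1 and 107 CPM in Bojungikgi-tang and 82.9, 80.7 and 81.7 CPM in Sayeok-tang (log2 fold change 0.33 ± 0.04, adjusted p = 1.4e-07). PROX1 was higher by 0.23 (adjusted p = 0.00075), ONECUT1 by 0.37 (adjusted p = 0.02), FOXA3 by 0.18 (adjusted p = 0.023) and HNF4A by 0.16 (adjusted p = 0.0069). Without Bojungikgi-tang replicate 2, 2 of the 7 remained called, since HNF4A (adjusted p = 0.24), ONECUT1 (adjusted p = 0.21) and FOXA3 (adjusted p = 0.22) were lost. FOXA3 was lost as well without Sayeok-tang replicate 2 (adjusted p = 0.086), and ONECUT1 without Sayeok-tang replicate 1 (adjusted p = 0.12).

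The 2 gingers differed in 3 of the 7 genes, where 23.5% of all genes were called. HNF4A had 298, 267 and 273 CPM in fresh ginger and 346 and 331 CPM in dried ginger (log2 fold change −0.28 ± 0.05, adjusted p = 1e-05). CEBPA was also lower in fresh ginger (−0.60, adjusted p = 0.00059), at 78.6, 84.5 and 70.3 CPM against 102 and 135 CPM in dried ginger, and the call was lost without the dried ginger library at 135 CPM (−0.39, adjusted p = 0.11). FOXA3 was higher in fresh ginger (0.19, adjusted p = 0.021), a call lost without either dried ginger replicate (adjusted p = 0.088 and 0.14). ONECUT1 (0.13, 95% interval −0.15 to 0.42) and PROX1 (−0.01, 95% interval −0.12 to 0.10) did not pass. FOXA1 did not pass (−0.11, adjusted p = 0.076), and was called without fresh ginger replicate 1 (−0.17, adjusted p = 0.0088).

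Coptidis Rhizoma and Zizyphi Fructus had 1 library per group, so their values have no replicate check. At 56 µg/mL Coptidis Rhizoma gave 2.69 CPM for ONECUT1, below 5.92 to 8.01 CPM in vehicle cells and the lowest of all 58 libraries. FOXA1 was at 78.9 CPM and CEBPA at 79.6 CPM, both below the vehicle range, while HNF4A at 438 CPM and PROX1 at 153 CPM lay above it. FOXA3 at 34.1 CPM lay below its vehicle range and FOXA2 at 34.5 CPM within its own. Of all genes tested, 41.5% lay below the vehicle range in this library and 42.6% above it. At 11.2 µg/mL FOXA1 was at 101 CPM and ONECUT1 at 5.45 CPM, below the vehicle range, as were 35.1% of all genes. Above it lay HNF4A at 382 CPM, PROX1 at 153, CEBPA at 143, FOXA2 at 38.8 and FOXA3 at 38.4, as did 36.6% of all genes. Zizyphi Fructus gave CEBPA at 194, 179.7 and 174 CPM from low to high dose, all above the vehicle at 137 to 139.5 CPM, where 34.2%, 33.3% and 32.5% of all genes lay above it. FOXA1 lay below the vehicle range at the low and medium doses, at 111 and 116 CPM, and within it at the high dose, at 117 CPM. HNF4A was at 331, 352 and 346 CPM from low to high dose, all below the vehicle range. Of all genes, 33.9%, 25.1% and 25.2% lay below that range. FOXA2 lay above it at all 3 doses, at 43.5, 43.6 and 38.7 CPM. PROX1 at 121 CPM and ONECUT1 at 4.70 CPM lay below it at the low dose. At the medium and high doses PROX1 lay above it, at 161 and 152 CPM. ONECUT1 was above it at the medium dose (9.02 CPM) and within it at the high dose (7.96 CPM). FOXA3 lay within it at the low dose, at 36.6 CPM, and below it at the medium and high doses, at 31.2 and 31.8 CPM.

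Over the 19 replicated groups CEBPA had the widest range of means, 2.90 times from 58.6 ± 5.44 CPM in high-dose Scutellariae Radix to 170.1 ± 37.3 CPM in low-dose dried ginger (SD, n = 3 each). ONECUT1 spanned 2.24 times, FOXA1 1.74, HNF4A 1.55, FOXA3 1.48, PROX1 1.29 and FOXA2 1.27. Most neighbours in an order did not differ beyond their spread. Of the 18 neighbouring pairs of groups in an order, the libraries did not overlap in 3 for FOXA3, in 2 each for CEBPA, FOXA1, HNF4A and ONECUT1, and in 1 each for FOXA2 and PROX1. For NR5A2, 0 of the 18 were apart, with group means of 0.487 to 0.803 CPM.

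As a description over the 24 group means of log2 CPM, which share the vehicle, sets and scaling, FOXA1 ran most closely with CEBPA (Pearson r = 0.89), then with ONECUT1 (0.77) and PROX1 (0.70). HNF4A stood at 0.56 with PROX1, 0.27 with FOXA1, 0.16 with CEBPA, −0.02 with ONECUT1 and −0.10 with FOXA2. Over the 58 libraries in place of the group means, HNF4A stood at 0.54 with PROX1, 0.45 with FOXA1, 0.37 with CEBPA, 0.24 with ONECUT1 and 0.04 with FOXA2. Among 10649 other genes of at least 5 CPM, those most like FOXA1 were NR1H4 (0.98), C1orf115 (0.97) and LANCL1 (0.97). NR1H4 encodes the bile acid receptor FXR. The genes most like CEBPA were NR2F6 (0.98), DUSP9 (0.95) and NADK2 (0.95), and for ONECUT1 they were FAM120C (0.96), ITPR2 (0.93) and RFX7 (0.93). For PROX1, ADAR (0.93) and RPRD2 (0.90) were among the 3 most like it. The matches were looser for HNF4A, with AFG1L (0.84), F11 (0.82) and MAOB (0.81), for FOXA2, with MAMDC4 (0.83), SP5 (0.82) and H1-10 (0.82), and for FOXA3, with MARK4 (0.82), TEAD2 (0.82) and PRKAR1A (0.81). With all 58 libraries in place of the group means, 1 of the 3 genes most like HNF4A and 1 of those most like FOXA3 were kept, and 0 of those most like PROX1.

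The other liver transcription factors moved in both directions at the high dose. Of 31, all of which were tested, 4 rose and 11 fell in Sayeok-tang, 2 rose and 3 fell in Bojungikgi-tang, 11 rose and 12 fell in fresh ginger, and 12 rose and 11 fell in dried ginger. In Pinelliae Tuber 1 rose and 1 fell, and in Scutellariae Radix 7 rose and 14 fell. Of all genes, 20.3% rose and 19.9% fell in Sayeok-tang, 2.24% and 2.31% in Bojungikgi-tang, 24.3% and 23.6% in fresh ginger, 23.3% and 22.8% in dried ginger, 9.14% and 6.57% in Pinelliae Tuber, and 28.7% and 28.1% in Scutellariae Radix. The share of these factors that fell was 35.5% in Sayeok-tang, 38.7% in fresh ginger, 35.5% in dried ginger and 45.2% in Scutellariae Radix, and the share that rose was 12.9%, 35.5%, 38.7% and 22.6%. Their median log2 fold change was −0.07, −0.02, 0.03, −0.04, 0.02 and −0.12 in that order, against all-gene medians within 0.01 of 0. NR1H4 was called lower in 5 of 6, by 1.74 on the log2 scale in fresh ginger. GATA6, a zinc finger factor of early liver, fell in 3 of 6, by 1.06 in dried ginger. NR2F2, which encodes the orphan receptor COUP-TFII, fell in 5 of 6, by 0.88 in Scutellariae Radix.

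The highest log2 fold changes among these factors were those of CEBPB and KLF6. KLF6, a zinc finger factor of the injury response, rose in 5 of 6 high-dose comparisons, by 1.32 in Scutellariae Radix and 1.12 in fresh ginger. CEBPB, the family member induced in regeneration and acute phase, rose in Scutellariae Radix by 1.33 (adjusted p = 8.5e-08) and in dried ginger by 0.81 (adjusted p = 0.0021), and its log2 fold change lay above 0 in all 6. In Scutellariae Radix CEBPA was at −1.25 beside it. ZBTB20, a repressor of AFP, rose in 4 of 6, by 0.62 to 0.87. CREB3L3, a membrane-bound factor of fasting metabolism, rose in both gingers (0.53 in fresh, 0.95 in dried).

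**Figure D4:**
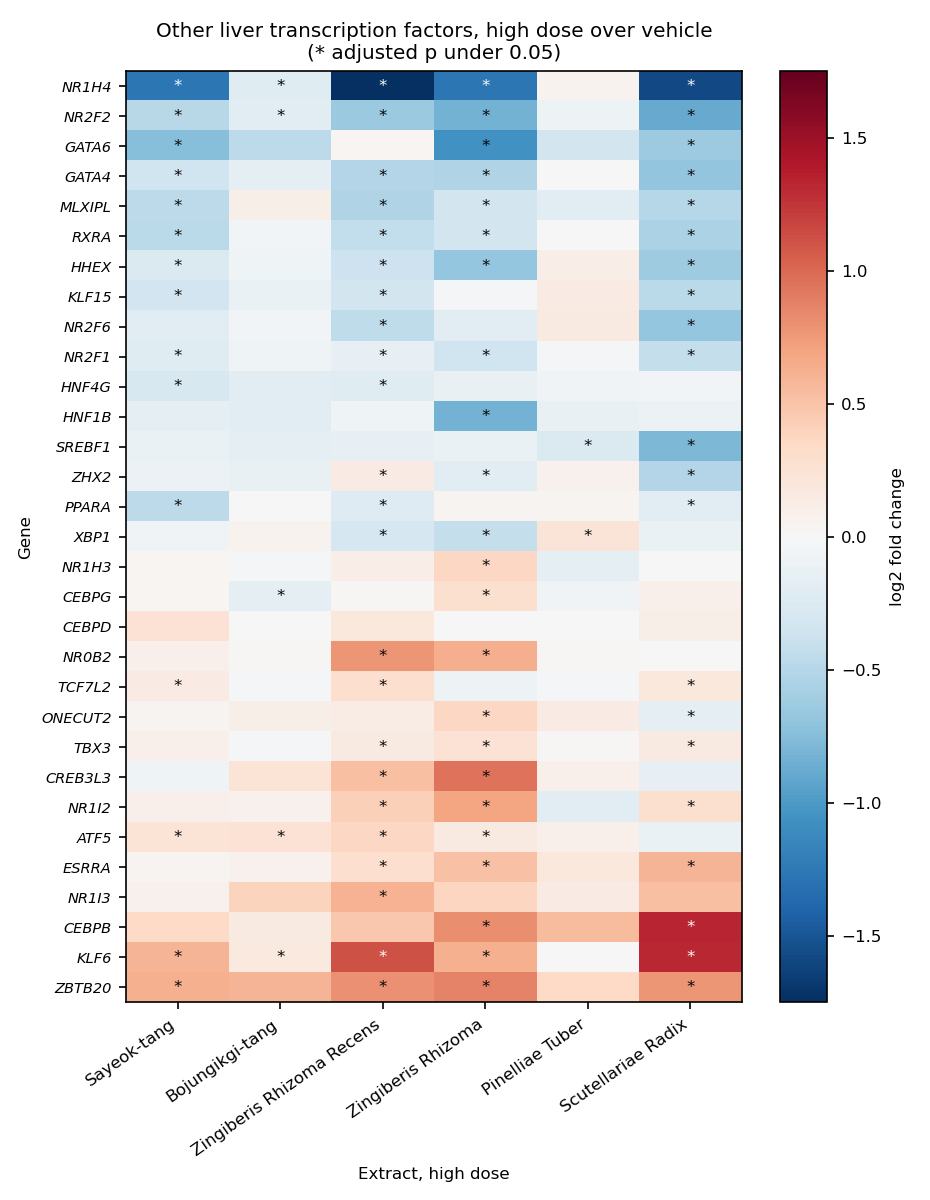
Log2 fold change of 31 other liver transcription factor genes (rows, ordered by their median) at the high dose of 6 extracts over vehicle (columns), with stars for an adjusted p under 0.05. NR1H4 heads the falling genes with −1.74 in fresh ginger, and KLF6 and CEBPB reach 1.32 and 1.33 in Scutellariae Radix.

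Among genes that the factors are known to regulate, more were called lower than higher at the high dose of Sayeok-tang, both gingers and Scutellariae Radix, on each of the 4 lists. Of 21 tested HNF4A targets (25 listed), 3 rose and 11 fell in Sayeok-tang, 2 rose and 0 fell in Bojungikgi-tang, 5 rose and 8 fell in fresh ginger, 4 rose and 12 fell in dried ginger, 0 rose and 6 fell in Pinelliae Tuber, and 3 rose and 13 fell in Scutellariae Radix. The share that fell was 52.4% in Sayeok-tang, where 19.9% of all genes fell, 57.1% in dried ginger (22.8%) and 61.9% in Scutellariae Radix (28.1%). In fresh ginger it was 38.1% (23.6%), and the share that rose there, 23.8%, was near the 24.3% of all genes. Their median log2 fold changes were −0.14, −0.03, −0.04, −0.27, −0.11 and −0.35. APOA4, an apolipoprotein, fell in Sayeok-tang, both gingers and Scutellariae Radix (log2 fold changes of −0.67 to −1.28). So did CYP8B1, the sterol hydroxylase of cholic acid synthesis (−0.50 to −0.91), and APOC3, an inhibitor of lipoprotein lipase (−0.65 to −0.91). ANG, which encodes the secreted ribonuclease angiogenin, fell in 4 of 6, by 1.04 in Scutellariae Radix. UGT1A1, the bilirubin conjugating enzyme, rose in Scutellariae Radix by 3.48 and in Bojungikgi-tang by 1.99, but UGT1A genes share exons, so its count is uncertain. The lists overlap, since ALB, TTR, SERPINA1, APOB, APOA1, CYP8B1, PCK1, TAT and CPS1 each stand on more than 1 of the 4. Like the other lists here, they were chosen with earlier results of these data known. Their shares therefore describe these genes and are not 4 separate or independent observations.

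Of 11 FOXA targets, 2 rose and 7 fell in Sayeok-tang, 1 and 1 in Bojungikgi-tang, 3 and 5 in fresh ginger, 2 and 7 in dried ginger, 1 and 2 in Pinelliae Tuber, and 2 and 8 in Scutellariae Radix. The share that fell was 63.6% in Sayeok-tang, 45.5% in fresh ginger, 63.6% in dried ginger and 72.7% in Scutellariae Radix. Of all genes, 19.9%, 23.6%, 22.8% and 28.1% fell in that order, and 20.3%, 24.3%, 23.3% and 28.7% rose. The medians of the FOXA targets were −0.21, 0.01, −0.01, −0.31, −0.02 and −0.47. IGFBP1, which encodes a secreted binder of insulin-like growth factors, rose in all 6, by 4.54 in Scutellariae Radix and 4.40 in fresh ginger, while FGB, the fibrinogen beta chain, fell in the 4 extracts where FOXA1 fell most (−0.74 to −1.36). TTR, the thyroid hormone carrier transthyretin, fell in 3 of 6, by 0.83 in Scutellariae Radix, and rose in fresh ginger (0.22). PCK1, the gluconeogenic carboxykinase that is also on the CEBPA list, fell in Sayeok-tang alone (−0.80, adjusted p = 1.8e-05). Of 10 tested CEBPA targets (11 listed), 1 rose and 8 fell in Sayeok-tang, 1 and 2 in Bojungikgi-tang, 2 and 4 in fresh ginger, 2 and 7 in dried ginger, 1 and 1 in Pinelliae Tuber, and 1 and 6 in Scutellariae Radix, with medians of −0.30, 0.03, −0.10, −0.35, −0.01 and −0.35. The shares of all genes are those given for the FOXA targets, and the 2 rises in fresh ginger lay near the 24.3% there. In Pinelliae Tuber 9.14% of all genes rose and 6.57% fell, near 1 and 1 of 10. HAMP, which encodes hepcidin, fell by 3.68 in Scutellariae Radix. HP, haptoglobin, fell in Sayeok-tang, both gingers and Scutellariae Radix (−0.89 to −1.39). FABP1, the liver fatty acid binding protein, fell in dried ginger (−0.89) and Sayeok-tang (−0.43) and rose in Bojungikgi-tang (0.49).

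Of 8 tested NR5A2 targets (12 listed), 0 rose and 5 fell in Sayeok-tang, 0 and 0 in Bojungikgi-tang, 2 and 4 in fresh ginger, 1 and 5 in dried ginger, 0 and 2 in Pinelliae Tuber, and 1 and 5 in Scutellariae Radix. Of all genes, 19.9% fell in Sayeok-tang, 23.6% in fresh ginger, 22.8% in dried ginger, 6.57% in Pinelliae Tuber and 28.1% in Scutellariae Radix. In fresh ginger 24.3% of all genes rose, near the 2 of 8. The medians of the 8 targets were −0.31, 0.01, −0.16, −0.45, −0.04 and −0.34, with NR5A2 itself near 1 CPM or under throughout. CEL, a carboxyl ester lipase, fell in 3 of 6, by 1.01 in dried ginger, and rose in Scutellariae Radix (0.38). ABCG8, a subunit of the sterol exporter, fell in 4 of 6, by 0.94 in Scutellariae Radix, and NR0B2, which encodes the repressor SHP, rose in both gingers (0.77 in fresh, 0.64 in dried).

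Of 15 cofactor genes of HNF4A, NR5A2 and PROX1, 3 rose and 5 fell in Sayeok-tang, 0 and 0 in Bojungikgi-tang, 4 and 4 in fresh ginger, 3 and 5 in dried ginger, 5 and 0 in Pinelliae Tuber, and 3 and 6 in Scutellariae Radix, with medians of −0.07, 0.01, 0.05, 0.02, 0.08 and −0.11. The share called was 53.3% in Sayeok-tang, where 40.2% of all genes were called, 53.3% in fresh ginger (47.9%), 53.3% in dried ginger (46.1%) and 60% in Scutellariae Radix (56.7%), so that in fresh and dried ginger and Scutellariae Radix it lay near that of all genes. In Bojungikgi-tang, where edgeR called 0 on both lists, 0 of the 8 NR5A2 targets and 1 of the 15 cofactors had an unadjusted p under 0.05. PPARGC1B, a coactivator of metabolic receptors, rose in 4 of 6, by 0.81 in dried ginger, and its relative PPARGC1A in 3 of 6, by 0.36 in fresh ginger. LCOR, a ligand-dependent corepressor, rose in 5 of 6, by 0.59 in fresh ginger, and NCOA3, a steroid receptor coactivator, fell in 4 of 6, by 0.48 in dried ginger.

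The summed level of the 10 hepatocyte markers at the high dose was 35535 to 38339 CPM in Sayeok-tang, 39037 to 40269 in fresh ginger, 36911 to 38609 in dried ginger and 31173 to 31442 in Scutellariae Radix, against 40430 to 40958 CPM in vehicle cells. Of the 10, 6 fell in Sayeok-tang, 3 in fresh ginger, 7 in dried ginger and 9 in Scutellariae Radix, and 0, 3, 1 and 1 rose. Of all genes, 19.9%, 23.6%, 22.8% and 28.1% fell in that order, and 20.3%, 24.3%, 23.3% and 28.7% rose. In fresh ginger the marker counts lay near these shares. The summed level of the 8 biliary and progenitor markers was 1378 to 1459 CPM in Sayeok-tang, 1369 to 1414 in fresh ginger, 1846 to 1983 in dried ginger and 1574 to 1580.2 in Scutellariae Radix, against 1055 to 1114 CPM in vehicle cells. Of the 6 tested, 1 rose and 2 fell in Sayeok-tang, 4 rose and 0 fell in fresh ginger, 2 rose and 1 fell in dried ginger, and 2 rose and 2 fell in Scutellariae Radix. In Scutellariae Radix these counts lay near the shares of all genes. SPP1, the most abundant of the 8, rose in all 6 high-dose comparisons, whereas SOX9 fell in 3 of 6 and rose in 0. Over all 58 libraries, which include the groups of 1 library, SPP1 ran from 474 to 1579 CPM. KRT7 and CFTR were at no more than 0.127 and 0.0443 CPM in any library. The summed level of the 5 fetal liver and hepatoma markers was 6994 to 7417 CPM in vehicle cells. At the high dose it was 5996 to 6118 CPM in Sayeok-tang and 6488.5 to 6845 in fresh ginger. It was 5349 to 5374 in dried ginger and 5023 to 5246 in Scutellariae Radix. AFP fell in 4 of 6, GPC3 and IGF2 each in 3 of 6 and DLK1 in 1 of 6, with 0 rises for each. H19 was not tested. The summed level of the 6 leukocyte markers was 1901 to 2027 CPM in Sayeok-tang, 2065 to 2371 in fresh ginger, 1512 to 1535 in dried ginger and 1728 to 1734 in Scutellariae Radix, against 1325 to 1405 CPM in vehicle cells. LYZ and CD68 each rose in 5 of 6 and CD14 fell in 3 of 6, with PTPRC at 0. The summed level of the 7 fibroblast markers was 12.03 to 13.7 CPM in Sayeok-tang, 20.7 to 24.2 in fresh ginger, 12.1 to 12.5 in dried ginger and 3.89 to 4.94 in Scutellariae Radix, against 10.2 to 11.8 CPM in vehicle cells. PDGFRB rose in 3 of 6 and fell in 3 of 6, with COL1A2 and DCN at 0. The intestinal marker VIL1 fell in 5 of 6 and the endothelial marker PECAM1 in 3 of 6, with 0 rises for each. The part of these shifts in the levels of the transcription factor genes was not tested.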

How the data were processed

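RNA-seq was analysed in 58 labelled libraries of HepG2 cells in 24 groups. The authors deposited expected counts per gene, made with Trim Galore 0.6.5, STAR 2.7.3a and RSEM 1.3.3 on GRCh38, with FastQC 0.11.9 for quality, per the submitters' processing notes. The values were not normalized, and 75.26% of those above 0 were whole within 1e-09. The table held 209 further columns, which were not used. Whether the counting used strand is not given in the sources used here.

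Counts were rounded to whole numbers, scaled by TMM and tested with edgeR 4.0.16 in R 4.3.3 by its two-sided quasi-likelihood test, with 1 mean per group over all 58 libraries, on genes that reached 1 CPM in 3 or more libraries. Calls used a Benjamini-Hochberg adjusted p under 0.05 over all 13945 genes. Groups of 1 library were not tested. CPM values used TMM-scaled totals, and intervals are 95% intervals. Replicates differed beyond sampling noise in every group, with a chi-square of at least 2.18 per gene. Alternatives were DESeq2 1.42.0, RLE scaling, no filter, a fit of only the groups compared, a replicate block, and leaving out libraries.

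The 8 genes and all lists were chosen with earlier results of these data known. Named in the text are all 8 genes and, from each list, up to 4 called genes with the largest change at the high dose, and the 3 genes with the highest correlation to each of the 8. Of those 3 for PROX1, 2 are named, and NR5A2 was too low for this. NR2F2, ZBTB20, CREB3L3 and APOC3 were added after their values were seen. FOXA1-DT was not matched to an identifier. Promoter windows were read from RefSeq (GRCh38.p14). A gene of the lists is not reported here.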

Additional observations from a re-analysis of the deposited data

How the results depend on the processing

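None of the 74 called log2 fold changes of the 7 genes changed direction under any alternative run, and 28 of the 115 that were not called took both signs over the alternatives. Of the log2 fold changes of single genes, 179 stayed on their side of the threshold with DESeq2, 2 became called and 3 were lost. The others had no adjusted p with DESeq2. RLE scaling lost 1 and kept 188, no filter on low counts added 10 and lost 4, a fit of only the groups compared added 14 and lost 7, and leaving out the 2 libraries that stand apart (replicate 3 of low-dose Scutellariae Radix and of low-dose dried ginger) added 5 and lost 3. Leaving out 1 library at a time added 9, lost 38 and kept 1024. Where this leaves 1 library in a group, that library is assumed to vary like the other groups. The causes were not tested.

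Counts of the 7 genes called that moved by more than 1.5 times, or to or away from 0, were as follows. With no filter they were 2 for high-dose Pinelliae Tuber (1 otherwise), 1 for its medium dose (0), 3 for low-dose dried ginger (1) and 2 for its medium dose (1). With only the groups compared they were 2 for high-dose Pinelliae Tuber, 1 for low-dose Scutellariae Radix (2), 4 for low-dose fresh ginger (0), 5 for its medium dose (2) and 0 for low-dose dried ginger. RLE scaling gave 0 for low-dose dried ginger. Without the 2 libraries that stand apart they were 2 for high over low Bojungikgi-tang (1), 2 for high-dose Pinelliae Tuber, 1 for low-dose fresh ginger and 0 for low-dose dried ginger. Leaving out 1 library at a time gave 2 to 5 for Bojungikgi-tang over Sayeok-tang, 0 to 1 for high over low Bojungikgi-tang, 1 to 2 for its high dose, 0 to 2 for high-dose Pinelliae Tuber, 1 to 4 for fresh over dried ginger, 1 to 3 for medium-dose fresh ginger, 0 to 2 for low-dose and 0 to 1 for medium-dose dried ginger. At the high dose, within 1.5 times, it gave 5 to 6 for Sayeok-tang, 6 for fresh ginger, 4 to 5 for dried ginger and 6 for Scutellariae Radix.

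Replicate numbers were not used to pair the libraries, since no comparison with 3 pairs had every correlation of deviations over 0.1. High over low Bojungikgi-tang, with 2 pairs, had both at 0.124, and high over low fresh ginger ran from 0.047 to 0.206. The rule cannot show that pairing is absent. The replicate block gave 2 of the 7 genes for high-dose Pinelliae Tuber and 2 for low-dose dried ginger, and changed no other call. RLE scaling gave log2 ratios to the vehicle mean of 0.31 and 0.36 for CEBPA in high-dose and medium-dose Zizyphi Fructus and of −0.018 and −0.033 for FOXA1. With library totals alone the vehicle means were 141 CPM for CEBPA and 119 CPM for FOXA1. With 58 libraries in place of group means, the genes most like a factor that were shared numbered 1 of 3 for FOXA3, 1 for HNF4A and 0 for PROX1.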
